A study of Mus musculus with 4 samples.

Results

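The homeobox, PAX and T-box patterning factors are transcription factor genes that lay out the parts of an embryo, the inner ear among them. Members were taken by gene symbol from the deposited tables: the numbered genes of the sine oculis (Six2, Six4 and relatives), Dlx, Hmx, Emx, Lhx, Isl, Meis, Pbx, Irx, Msx, Alx, Prrx, Otx, Pax and Tbx families, Lmx1a and Lmx1b, and the POU genes named in the form Pou4f3, with Pou3f1 left out. The symbol rule found 88 genes among 20777 rows. Of these, 84 had a value and 4 (Pax4, Pax8, Pou1f1 and Tbx19) had none. Testing required a 4-library mean of 0.5 FPKM or more, and 45 members passed this filter. Another 39 had a value but lay under it. FPKM divides the fragments of a gene by its transcript length and by the library's total, so levels of different genes can be set side by side per length.

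RNA came from cochleae of C57BL/6 mice at postnatal day 10 and was sequenced in 4 libraries, 2 per genotype. Knockout (KO) libraries are labelled Zbtb20 F/F with a cre driver and wild-type (WT) libraries Zbtb20 +/+ with a cre driver, so the controls carried cre too. In both genotypes the driver is spelled FoxG2-cre in the library numbered 2 and FoxG3-cre in the library numbered 3, so driver spelling and replicate number cannot be told apart. The cells in which the driver acted are not given in the labels. Whether each library is a different animal is not stated in them, and p-values here reflect library-to-library spread alone, which may be technical.

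Homeodomain, paired-domain and T-box proteins bind DNA and switch other genes on or off. In the developing inner ear different members mark different parts: Pax2 and Dlx5 the otic epithelium, Pou4f3 the hair cells, Isl1 the sensory region and the ganglion neurons, and Pou3f4 and Tbx18 the mesenchyme that becomes the spiral ligament. Many are known from early development, and at postnatal day 10 the mouse cochlea is close to the onset of hearing. In RNA from a whole organ, fewer cells of a type and less RNA per cell cannot be told apart.

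Zbtb20 itself, a zinc finger gene, was at 7.35 and 7.41 FPKM in KO libraries, against 10.94 and 10.67 FPKM in WT libraries (log2 fold change -0.49 ± 0.08 SE, adjusted p = 0.0394, limma). The 2 KO libraries lay below both WT libraries, and the call was lost with any 1 library left out (adjusted p = 0.083 to 0.316). Summed FPKM was 391808 to 405144 per library, and the tables give no fragment counts, so no counting interval can be put on a value. Hair cell genes (summed FPKM 184.6 and 194.0 in KO, 223.3 and 210.5 in WT) and fibrocyte genes (12834 and 13966 in KO, 13823 and 13494 in WT) were present in every library. WT replicate 2 stood apart by skeletal muscle genes: 9 of them summed to 3.9 and 2.5 FPKM in KO replicates 2 and 3, against 386.3 and 1.8 FPKM in WT replicates 2 and 3. The list's other gene, Pvalb, was at 12.9 and 31.82 FPKM in KO, against 46.42 and 75.73 FPKM in WT. Ganglion neuron genes summed to 80.6 and 187.9 FPKM in KO replicates 2 and 3, and to 172.1 and 443.4 FPKM in WT replicates 2 and 3. Schwann cell genes summed to 584.1 and 923.2 FPKM in KO, against 7075 and 3953 FPKM in WT.

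The highest member was Pou3f4, the POU factor of otic mesenchyme, with 107.11 and 97.63 FPKM in KO libraries and 89.53 and 89.1 FPKM in WT libraries. Other high members, by mean level over the 4 libraries, were Irx3 at 78.3, Tbx18 at 66.3, Pou3f3 at 63.6, Tbx1 at 56.1, Irx1 at 45.2, Tbx2 at 40.2, Irx5 at 37.9 and Six2 at 25.8 FPKM. Each gene named here overlapped the next one named in its range over libraries, so the order is not fixed from one gene to the next. In all, 22 members had a mean of at least 10 FPKM. Summed over the members with a value, the level was 907.5 and 787.2 FPKM in KO replicates 2 and 3, and 868.2 and 762.3 FPKM in WT replicates 2 and 3, so the libraries numbered 2 were the higher in both genotypes and the genotypes overlapped.

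**Figure D1:**
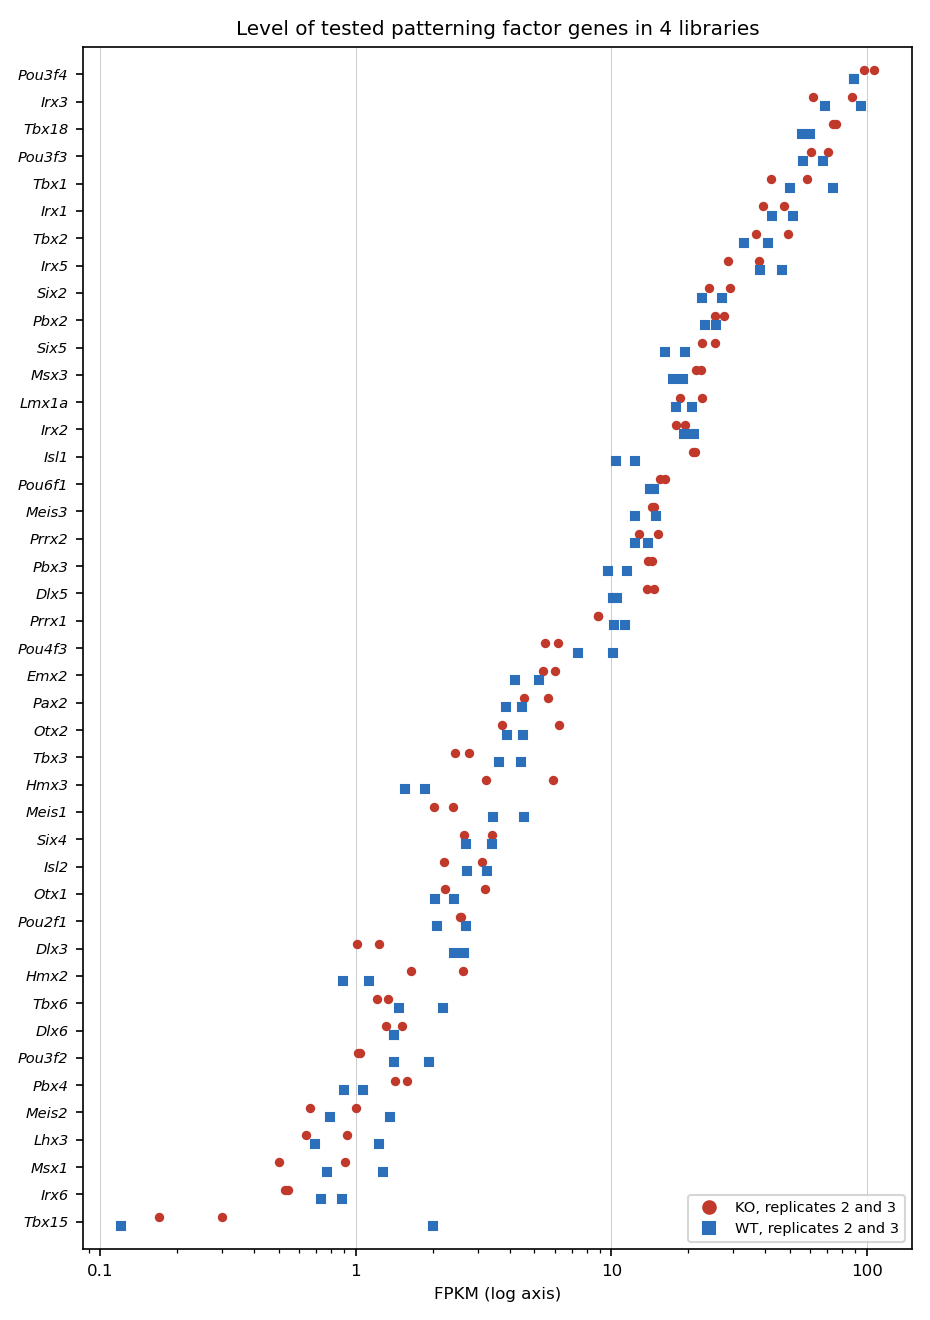
FPKM (log axis) of 43 tested members in each library, ordered by mean level; circles are the 2 KO libraries and squares, drawn just below them, the 2 WT libraries. Isl1 and Dlx3 have the genotypes clearly apart, while for Irx3, Tbx1 and Tbx2 the libraries of one genotype lie as far apart as the genotypes do.

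At an adjusted p of 0.05 over all genes tested, 2 of the 45 members were called: Isl1 rose and Dlx3 fell. That is 4.44% of the tested members, and 4.43% of the 13966 genes tested were called (618, of which 333 higher and 285 lower in KO, or 243 and 355 after each library was rescaled by its median of ratios). By direction, 2.38% of all genes tested were called higher and 2.04% lower. The share of members called was thus at the background. Both calls were lost without KO replicate 2 and without KO replicate 3, fits in which limma called 1 gene in all. Before adjustment p was under 0.05 in 17 members, 10 above and 7 below WT, or 37.8%, where 22.0% of all genes tested reached that level (14.3% higher and 7.74% lower). Both KO libraries lay beyond both WT libraries in 24 members, 14 above and 10 below. That is 53.3%, against 55.0% of all genes tested (37.9% above and 17.1% below). The median log2 fold change of the tested members was 0.08, beside 0.06 over all genes tested, and the members ran from -0.74 to 1.0.

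**Figure D2:**
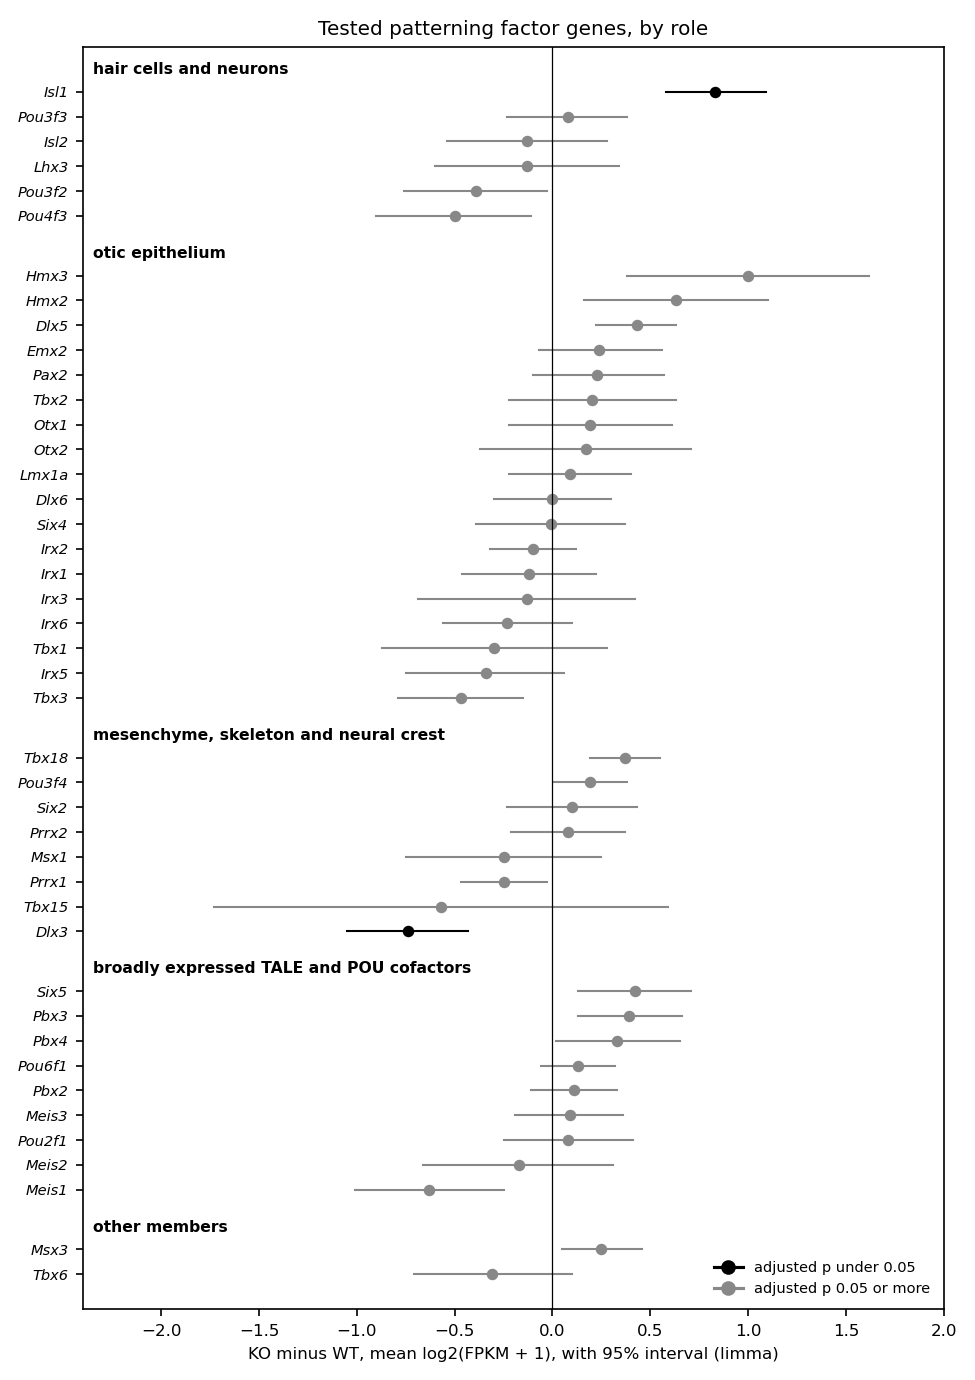
KO minus WT difference in mean log2(FPKM + 1) of 43 tested members (points) with 95% intervals from limma (lines), grouped by known role; black marks an adjusted p under 0.05. Isl1 at 0.83 and Dlx3 at -0.74 are the 2 in black, and most of the other intervals reach 0.

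Isl1, a LIM homeodomain factor of the sensory epithelium and of ganglion neurons, was at 20.91 and 21.28 FPKM in KO libraries, against 10.48 and 12.43 FPKM in WT libraries. Both KO libraries were high, close to each other and clear of both WT libraries. KO cochleae held 1.84 times the WT mean (21.1 ± 0.262 and 11.5 ± 1.38 FPKM, SD, n = 2 each), a log2 fold change of 0.83 ± 0.1 (SE; 95% interval 0.58 to 1.09; adjusted p = 0.0189, limma). In GRCm38 the gene spans bases 116298281 to 116309689 of chromosome 13, minus strand. The call was kept with WT replicate 2 or WT replicate 3 left out, and lost with KO replicate 2 or KO replicate 3 left out. Such fits take the gene's own spread only from the genotype that keeps 2 libraries. They therefore cannot show whether the call rests on 1 library. The call was also lost without the filter on low values (adjusted p = 0.0511, limma). Over these 5 fits its log2 fold change stayed between 0.72 and 0.94. Of 9 ganglion neuron genes 8 were tested. Ntrk3 and Syt1 rose (0.95 and 0.92), and the other 6 had negative log2 fold changes that did not pass, at -1.61 for Calb2, -1.53 for Nefl, -1.48 for Nefm, -1.35 for Snap25, -1.06 for Tubb3 and -0.4 for Scn8a. No gene of that list was at 0 in any library, and its summed level was 80.6 to 187.9 FPKM in KO and 172.1 to 443.4 FPKM in WT. Its part in the Isl1 difference was not tested.

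Because Isl1 is the called member with an entry in the RefSeq promoter table, its upstream sequence is shown, with that of the neighbouring pair Hmx3 and Hmx2 (described with the otic epithelium) for comparison. Each is read 5′ to 3′ on the gene's strand from 250 bases before a RefSeq start up to that start or, where it comes earlier, the first exon base in GENCODE. Capitals mark CG dinucleotides. The Isl1 stretch is chr13:116309690-116309938 (minus strand), the Hmx3 stretch chr7:131542713-131542866 and the Hmx2 stretch chr7:131548507-131548756 (both plus strand), all on GRCm38.p6.
Isl1: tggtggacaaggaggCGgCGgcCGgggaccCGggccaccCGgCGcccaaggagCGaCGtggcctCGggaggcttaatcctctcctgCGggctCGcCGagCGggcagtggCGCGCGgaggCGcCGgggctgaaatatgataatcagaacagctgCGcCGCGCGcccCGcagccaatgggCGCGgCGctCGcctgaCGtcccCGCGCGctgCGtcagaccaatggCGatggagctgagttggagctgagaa
Hmx3: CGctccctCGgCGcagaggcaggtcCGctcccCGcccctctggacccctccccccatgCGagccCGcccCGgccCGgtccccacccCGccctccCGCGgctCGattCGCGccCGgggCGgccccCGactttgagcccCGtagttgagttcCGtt
Hmx2: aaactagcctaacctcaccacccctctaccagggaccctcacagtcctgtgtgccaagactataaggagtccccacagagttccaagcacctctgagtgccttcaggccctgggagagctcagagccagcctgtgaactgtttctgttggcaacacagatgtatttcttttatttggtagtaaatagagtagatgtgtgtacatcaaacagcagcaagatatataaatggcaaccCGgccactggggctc

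The full 250-base windows held 33 CG for Isl1, 31 for Hmx3 and 1 for this Hmx2 start. Over 83 windows of the 64 members with an entry the median was 14 CG, and over 20141 windows of all genes in the tables it was 10. The letters TAATTA, a palindromic core bound by many homeodomains, stood in 6 of the 83 member windows (7.23%) and in 4.23% of all windows. AGGTGTGA, the core of the T-box element, was searched on both strands and stood in 0 member windows and in 0.98% of all windows. None of the 3 windows shown held either motif. These are matches of letters in a short window.

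**Figure D3:**
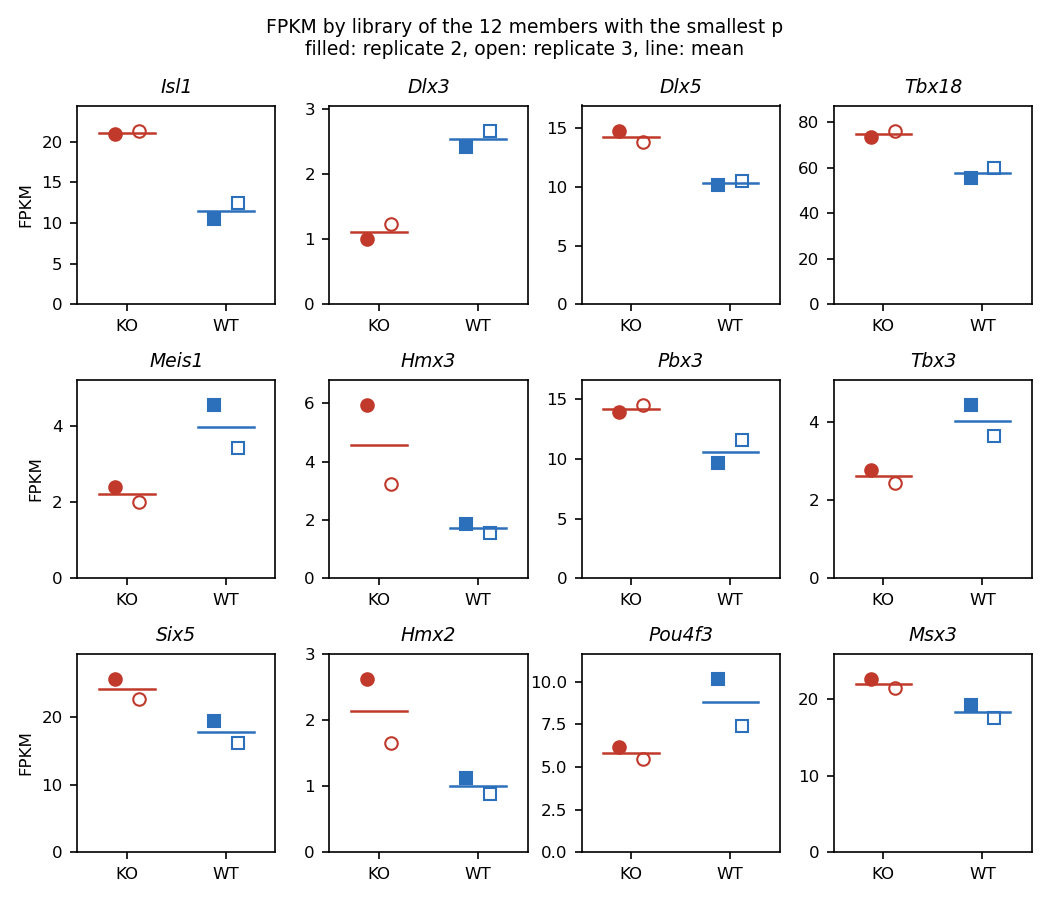
FPKM by library of the 12 members with the smallest unadjusted p, KO left of WT in each panel; filled symbols are replicate 2, open symbols replicate 3, and lines the means. Isl1 (about 21 FPKM in KO, under 13 in WT) and Dlx3 (under 1.3 in KO, over 2.4 in WT) passed the adjusted threshold, and the other 10 did not although their groups do not overlap.

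Among members known from hair cells and neurons, 1 of 6 tested rose (Isl1) and 0 fell, with a median of -0.13. Pou4f3, which hair cells need to survive, was at 6.19 and 5.5 FPKM in KO libraries, against 10.13 and 7.43 FPKM in WT libraries. Both KO libraries lay below both WT libraries, and the WT libraries lay farther apart than the nearest KO and WT libraries did. Its log2 fold change was -0.5 ± 0.16 (SE; 95% interval -0.9 to -0.11; adjusted p = 0.153, limma). Of the 10 hair cell genes 9 were tested, and all 9 had negative log2 fold changes, from -0.63 for Otof to -0.13 for Ocm. KO libraries lay below WT libraries without overlap in 8 of them, the unadjusted p was under 0.05 in 5, and 0 passed after adjustment (limma). Of all genes tested, 17.1% lay below without overlap and 7.74% were lower with an unadjusted p under 0.05. The gene not tested, Atoh1, was at 0 in KO replicate 2 and no higher than 0.13 FPKM elsewhere. Their part in the Pou4f3 values was not tested. Isl2, a close relative of Isl1, was at 3.13 and 2.21 FPKM in KO and 3.25 and 2.73 FPKM in WT, and the genotypes overlapped (-0.13 ± 0.16). Lhx3, a LIM factor found in hair cells, was at 0.92 and 0.64 FPKM in KO and 1.23 and 0.69 FPKM in WT, also overlapping.

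The neural POU factor Pou3f2 was at 1.02 and 1.04 FPKM in KO libraries, against 1.41 and 1.94 FPKM in WT libraries. The genotypes did not overlap, and the difference of -0.39 ± 0.14 had an adjusted p of 0.206 (limma). Its relative Pou3f3 was far higher, at 70.26 and 60.38 FPKM in KO and 67.44 and 56.4 FPKM in WT. In each genotype replicate 2 was the higher, and the log2 fold change of 0.08 had a 95% interval of -0.23 to 0.38. Pou4f1 and Pou4f2, factors of sensory neurons, lay under the filter: Pou4f1 was at 0.11 and 0.29 FPKM in KO replicates 2 and 3, against 0.2 and 0.57 FPKM in WT replicates 2 and 3. For Pou4f2 the values were 0.09 and 0.35 FPKM in KO and 0.32 and 1.05 FPKM in WT. Both genes were higher in the libraries numbered 3, as was the summed level of the ganglion neuron list, and in both the genotypes overlapped. Within each number KO lay below WT for both genes and for that sum, an ordering that was not tested.

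Of 23 members known from the otic epithelium 19 were tested and 0 passed, and a median of 0.0. The unadjusted p was under 0.05 for 5 of the 19, 3 above and 2 below WT, beside 14.3% higher and 7.74% lower over all genes tested. Hmx3 and Hmx2, homeobox genes needed for the vestibular parts of the inner ear, lie 3.8 kb apart on chromosome 7. Hmx3 was at 5.92 and 3.22 FPKM in KO libraries, against 1.86 and 1.56 FPKM in WT libraries, and Hmx2 at 2.62 and 1.65 FPKM in KO, against 1.13 and 0.89 FPKM in WT. In both genes the KO libraries lay above the WT libraries, with KO replicate 2 well above KO replicate 3. The KO mean was 2.67 times the WT mean for Hmx3 and 2.11 times for Hmx2. Their log2 fold changes of 1.0 ± 0.25 and 0.63 ± 0.19 did not pass (adjusted p = 0.0995 and 0.141, limma). The Hmx3 difference was 0.64 without KO replicate 2 and 1.35 without KO replicate 3, and that of Hmx2 0.4 and 0.85.

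Dlx5, needed for the dorsal otic vesicle and for bone, was at 14.74 and 13.8 FPKM in KO libraries, against 10.19 and 10.52 FPKM in WT libraries. The groups were apart and tight (14.3 ± 0.665 and 10.4 ± 0.233 FPKM, SD, n = 2 each), yet the log2 fold change of 0.43 ± 0.08 missed the threshold (adjusted p = 0.0562, limma). After median-of-ratios scaling it was 0.36 (adjusted p = 0.0908, limma). Dlx6 lies 9.2 kb from Dlx5 on chromosome 6 and was at 1.31 and 1.51 FPKM in KO and 1.41 and 1.41 FPKM in WT. Its values overlapped, with a 95% interval for the log2 fold change of -0.3 to 0.3. The test of whether the neighbours differed from each other was not run.

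Tbx3, a T-box repressor, was at 2.78 and 2.45 FPKM in KO libraries, against 4.42 and 3.63 FPKM in WT libraries. KO libraries were lower without overlap, at -0.47 ± 0.13 (adjusted p = 0.117, limma). Tbx2, which in mice sets inner apart from outer hair cell identity, was at 49.32 and 37.0 FPKM in KO and 41.15 and 33.15 FPKM in WT, with overlap (95% interval -0.22 to 0.63). Tbx1, the gene of the DiGeorge region in humans, was at 58.13 and 42.14 FPKM in KO and 73.99 and 50.27 FPKM in WT. The genotypes overlapped, replicate 2 was the higher in both, and KO lay below WT within each number. The log2 fold change was -0.3 ± 0.23 (adjusted p = 0.485, limma).

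The Iroquois factors Irx1, Irx2, Irx3, Irx5 and Irx6 all had negative log2 fold changes, from -0.34 to -0.1, and none of the 5 passed. Among the 13966 genes tested, 5129 had negative log2 fold changes and 8837 positive. Irx3 was at 87.66 and 61.77 FPKM in KO and 95.39 and 68.37 FPKM in WT, and Irx5 at 37.92 and 28.74 FPKM in KO, against 46.57 and 38.2 FPKM in WT. Irx5 and Irx6 were lower in KO without overlap, as were 17.1% of all genes tested, while Irx1, Irx2 and Irx3 overlapped. For Irx1, Irx2 and Irx3 the KO library lay below the WT library of the same number in each pair. Irx2 stayed negative with any 1 library left out (-0.16 to -0.04). With KO replicate 3 or WT replicate 2 left out, a comparison that is then uneven in replicate number, Irx3 was at 0.12 and 0.1 and Irx1 at 0.02 in each.

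Pax2, an early marker of the otic placode, was at 5.64 and 4.56 FPKM in KO and 4.48 and 3.87 FPKM in WT. Emx2, which sets the orientation of hair cells, was at 6.04 and 5.42 FPKM in KO and 5.19 and 4.2 FPKM in WT. For both genes the KO values lay just above the WT values, by 0.23 ± 0.13 and 0.24 ± 0.12, and neither passed (adjusted p = 0.353 and 0.317, limma). Lmx1a, which keeps sensory and nonsensory domains apart, was at 22.64 and 18.58 FPKM in KO and 17.93 and 20.61 FPKM in WT. Otx2, a head gap gene in vertebrates, was at 6.22 and 3.75 FPKM in KO and 3.89 and 4.52 FPKM in WT. Lmx1a and Otx2 overlapped between genotypes, with 95% intervals of -0.22 to 0.4 and -0.37 to 0.71.

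Marginal cell genes summed to 319.4 and 303.3 FPKM in KO, against 233.4 and 253.6 FPKM in WT, with 4 of 6 called higher. Supporting cell genes summed to 1615 and 1492 FPKM in KO, against 1272 and 1348 FPKM in WT, with 2 of 8 called higher and 3 lower. That sum does not give the direction of most of the 8. Tectb among them was at 709.87 and 560.76 FPKM in KO, against 158.51 and 164.67 FPKM in WT. KO libraries lay below WT libraries without overlap in 5 of the 8 and above in 2. Over all genes tested, 17.1% lay below without overlap and 37.9% above, and 2.38% were called higher and 2.04% lower. The marginal and supporting cell lists hold other genes of the same epithelium. Their part in the values of the otic epithelial factors was not tested.

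Among members of mesenchyme, skeleton and neural crest, 1 of 8 tested fell (Dlx3) and 0 rose, with a median of -0.08. Dlx3, a homeobox gene of teeth, hair and bone in which human mutations cause tricho-dento-osseous syndrome, was at 1.01 and 1.23 FPKM in KO libraries, against 2.42 and 2.66 FPKM in WT libraries. Both KO libraries were low and clear of both WT libraries. The WT mean was 2.27 times the KO mean (1.12 ± 0.156 FPKM in KO and 2.54 ± 0.17 FPKM in WT, SD, n = 2 each), a log2 fold change of -0.74 ± 0.12 (SE; 95% interval -1.05 to -0.43; adjusted p = 0.0412, limma). In GRCm38 Dlx3 spans bases 95120119 to 95125296 of chromosome 11, plus strand. With a pseudocount of 0.1 its log2 fold change was -1.12 and the call held. Its call was lost with any 1 library left out, in fits limited as described for Isl1. It was also lost without the filter on low values (adjusted p = 0.0716, limma). The log2 fold change of Dlx3 ran from -0.82 to -0.67 in these fits. Osteoblast genes summed to 775.4 and 1112 FPKM in KO, against 1706 and 1648 FPKM in WT, with 0 of 7 called. The sum of WT replicate 2 rests in part on Col1a1. That gene was at 567.74 FPKM there and 100.71 FPKM in WT replicate 3, against 74.42 and 74.03 FPKM in KO. KO libraries lay below WT libraries in all 7, and the unadjusted p was under 0.05 in 4 (limma), beside 17.1% and 7.74% of all genes tested. None of these 7 genes was at 0 in any library, and their part in the Dlx3 difference was not tested.

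Tbx18, which the fibrocytes of the spiral ligament need, was at 73.63 and 76.02 FPKM in KO libraries, against 55.75 and 59.78 FPKM in WT libraries. KO was 1.3 times WT, with both KO libraries above both WT libraries, and the log2 fold change of 0.37 ± 0.07 missed the threshold (adjusted p = 0.0581, limma). Of its exon bases 20.6% are shared with D030062O11Rik on the other strand, and no source used here says whether counting used strand, so reads of the 2 genes cannot be told apart there. Pou3f4, in which human mutations cause X-linked deafness, was at 0.19 ± 0.07 without overlap (adjusted p = 0.219, limma), and at 0.12 after median-of-ratios scaling. Fibrocyte genes overlapped in summed level between the genotypes, with 2 of 6 called higher and 2 lower, beside 2.38% and 2.04% of all genes tested.

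The paired-related gene Prrx1, of limb and head mesenchyme, was at 8.89 and 8.87 FPKM in KO libraries, against 11.28 and 10.27 FPKM in WT libraries. KO libraries were lower without overlap (-0.25 ± 0.09, adjusted p = 0.185, limma). Prrx2, its close relative, overlapped at 15.21 and 12.79 FPKM in KO and 13.93 and 12.42 FPKM in WT, as did Six2 and Msx1. Tbx15, a T-box gene of skeleton and muscle, was at 0.3 and 0.17 FPKM in KO libraries, against 2.0 and 0.12 FPKM in WT libraries. The 1 high value was in WT replicate 2, the library with skeletal muscle transcripts. Over 4 libraries the Tbx15 difference of -0.57 ± 0.46 did not pass. Without WT replicate 3 it was -1.28 (adjusted p = 0.0207, limma), a value that rests on WT replicate 2 alone, taken to vary as the KO libraries do, and without WT replicate 2 the gene was under the filter.

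The TALE factors of the Meis and Pbx families, which bind DNA together with Hox proteins, formed a group of 10 tested members together with Six5 and widely expressed POU genes. None passed, and the median was 0.12. The unadjusted p was under 0.05 for 4 of the 10, 3 above and 1 below WT, beside 14.3% higher and 7.74% lower over all genes tested. Meis1 was at 2.4 and 2.02 FPKM in KO libraries, against 4.55 and 3.44 FPKM in WT libraries. KO libraries were lower without overlap (WT mean 1.81 times the KO mean; -0.63 ± 0.15, adjusted p = 0.0925, limma). Exons of Meis1 share bases with Gm37818 on the same strand (9.8%) and with the antisense gene Gm16140 on the other strand (8.5%). Meis2 and Meis3 overlapped between genotypes, with Meis3 the higher of the family at 14.38 and 14.75 FPKM in KO and 15.03 and 12.4 FPKM in WT.

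Pbx2, Pbx3 and Pbx4 had positive log2 fold changes of 0.11, 0.39 and 0.33, and none of them passed. Pbx3 was at 13.93 and 14.46 FPKM in KO libraries, against 9.67 and 11.53 FPKM in WT libraries. It did not overlap between genotypes (0.39 ± 0.1, adjusted p = 0.115, limma), and neither did Pbx4, while Pbx2 did. Six5, the gene beside Dmpk at the human myotonic dystrophy locus, was at 25.57 and 22.62 FPKM in KO libraries, against 19.36 and 16.21 FPKM in WT libraries. KO was 1.35 times WT without overlap (0.42 ± 0.11, adjusted p = 0.119, limma). Pou2f1, an octamer-binding factor of most cells, was at 2.55 and 2.57 FPKM in KO and 2.07 and 2.69 FPKM in WT, with overlap. It shares 18.1% of its exon bases with Cd247 on the other strand.

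Outside these roles 2 members were tested. Msx3, known in mice from the dorsal neural tube, was at 22.55 and 21.46 FPKM in KO libraries, against 19.16 and 17.47 FPKM in WT libraries, far above its relatives Msx1 (0.5 to 1.28 FPKM) and Msx2 (0.32 to 0.47 FPKM). KO was above WT without overlap (0.25 ± 0.08, adjusted p = 0.165, limma, and 0.18 after median-of-ratios scaling). No exon base of Msx3 is shared with another gene in GENCODE. Tbx6, a factor of presomitic mesoderm, was at 1.21 and 1.33 FPKM in KO libraries, against 1.47 and 2.19 FPKM in WT libraries. It did not pass (-0.31 ± 0.16).

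Of the 39 members under the filter, 21 were below 0.1 FPKM in every library, among them Lhx2, Six3, Six6 and Emx1, which pattern forebrain and eye, and Tbx5 and Tbx20, which pattern the heart. Lhx4 and Tbx10 were listed at 0 in all 4 libraries. Without a filter 82 members entered the fit and 1, Pax3, was called, where 1.51% of the 17615 genes in that fit were. Pax3, a factor of neural crest and melanocyte precursors, was at 0.75 and 0.82 FPKM in KO libraries, against 0.13 and 0.16 FPKM in WT libraries. Both KO libraries stood well above both WT libraries (5.41 times in mean FPKM; log2 fold change 0.64 ± 0.06, adjusted p = 0.0379, limma without a filter). Its mean of 0.465 FPKM was just under the filter. Melanocyte genes summed to 258.0 and 248.0 FPKM in KO, against 69.2 and 68.3 FPKM in WT, and none was at 0 in any library. With the filter 4 of 6 tested were called higher and 1 lower, beside 2.38% and 2.04% of all genes tested. Their part in the Pax3 difference was not tested.

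Dlx1 and Dlx2, neighbours 9.4 kb apart on chromosome 2 that act in forebrain and in neural crest of the jaw, were low throughout. Dlx1 was at 0.06 and 0.07 FPKM in KO libraries, against 0.37 and 0.36 FPKM in WT libraries, and Dlx2 at 0.15 and 0.16 FPKM in KO, against 0.73 and 0.51 FPKM in WT. KO libraries were low and clear of the WT libraries in both genes, with adjusted p of 0.0526 and 0.0895 (limma without a filter). At such levels few fragments stand behind a value.

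Pax9, of pharyngeal pouches and the skull base, was at 0.15 and 0.13 FPKM in KO libraries, against 0.47 and 0.29 FPKM in WT libraries (adjusted p = 0.19, limma without a filter). KO libraries were again lower without overlap. Pax1, its relative, was listed at 0 in both KO libraries and was at 0.37 and 0.03 FPKM in WT replicates 2 and 3, and Lhx8 was at 0.25 FPKM in WT replicate 2 and listed at 0 elsewhere. Like Tbx15, these 2 genes were high in the library with muscle transcripts only. Of the 39 members under the filter 11 had their highest value in WT replicate 2. The same count was not made for the other libraries or over all genes, so it shows no excess in that library.

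**Figure D4:**
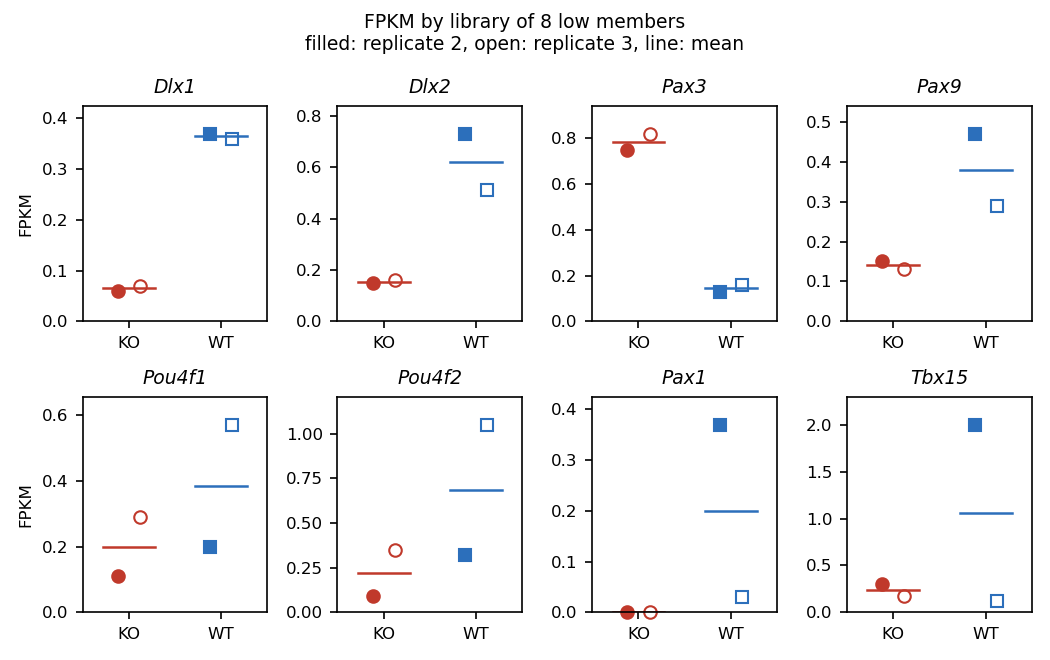
FPKM by library of 8 low members, KO left of WT; filled symbols are replicate 2, open symbols replicate 3, lines the means, and 7 of the 8 (all but Tbx15) were under the filter of 0.5 FPKM. Dlx1, Dlx2 and Pax3 have groups that do not overlap, tight in both genotypes for Dlx1 and Pax3 and in KO only for Dlx2. Pou4f1 and Pou4f2 are higher in replicate 3 of each genotype, and Pax1 and Tbx15 stand out in WT replicate 2 alone.

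Homeobox and T-box genes outside the symbol rule, cofactors of the members and other regulators of the ear made lists of 94 genes, of which 58 were tested. Their median log2 fold change was 0.07, beside 0.06 over all genes tested, and 4.43% of all genes tested were called. Ldb2, which bridges LIM homeodomain proteins such as Isl1 to each other, was at 12.56 and 12.88 FPKM in KO libraries, against 6.8 and 6.68 FPKM in WT libraries. Both groups were tight and far apart (1.89 times; 0.83 ± 0.08, adjusted p = 0.0116, limma). Without KO replicate 2 or KO replicate 3 it did not pass (adjusted p = 0.171 and 0.164, limma).

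By list, 1 of 18 cofactors rose (Ldb2) and 0 fell, and 0 of 26 other homeobox genes and 0 of 1 other T-box gene (Mga) passed with limma. Before adjustment p was under 0.05 for 9 of the 26 homeobox genes, 6 above and 3 below WT, beside 14.3% higher and 7.74% lower over all genes tested. The smallest p in that list belonged to Zeb2 (-0.46 ± 0.09, adjusted p = 0.0587, limma), at 4.8 and 5.12 FPKM in KO against 7.27 and 7.14 FPKM in WT. Zeb2 also acts in Schwann cells, whose genes were lower in KO, a part that was not tested. Eya1, a cofactor of sine oculis homeobox proteins, was at 33.72 and 33.88 FPKM in KO and 31.19 and 30.57 FPKM in WT, and Eya2 at 26.79 and 22.03 FPKM in KO, against 36.27 and 31.75 FPKM in WT (adjusted p = 0.11). Dach1, another partner, was at 7.1 and 6.6 FPKM in KO, against 4.46 and 4.82 FPKM in WT (adjusted p = 0.0639, limma). Gata3, which the sensory epithelium and ganglion neurons need, was at 62.54 and 55.04 FPKM in KO, against 45.69 and 38.62 FPKM in WT (adjusted p = 0.0914, limma). None of these 4 genes passed, and none overlapped between genotypes, where 55.0% of all genes tested did not overlap. Eya3 and Eya4, in the same list as Eya1 and Eya2, did overlap. Eya1 differed by 0.13 on the log2 scale, Eya2 by -0.47, Dach1 by 0.48 and Gata3 by 0.47. Among the smallest p of their lists were also Tle2, a Groucho corepressor (0.44, adjusted p = 0.0679, limma), Tgif1, a TALE repressor (0.38, adjusted p = 0.0718), and Twist2, a mesenchymal factor (0.84, adjusted p = 0.113).

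The libraries numbered 2 and 3 differed in the same direction in both genotypes for most tested members. In 30 of 45 members (66.7%) replicate 2 was above replicate 3 in KO and in WT, beside 29.0% of all genes tested. In 8 members (17.8%) replicate 3 was the higher in both, beside 36.5% of all genes tested. Among the otic epithelial members 15 of 19 were higher in both libraries numbered 2, including all 5 Irx genes, and 0 were higher in both libraries numbered 3. In the group of hair cells and neurons the counts were 4 and 2 of 6. Ganglion neuron genes went the other way, with the higher sum in the libraries numbered 3. No test was made of this pattern, and the number, the cre spelling and whatever else the libraries share cannot be told apart.

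**Figure D5:**
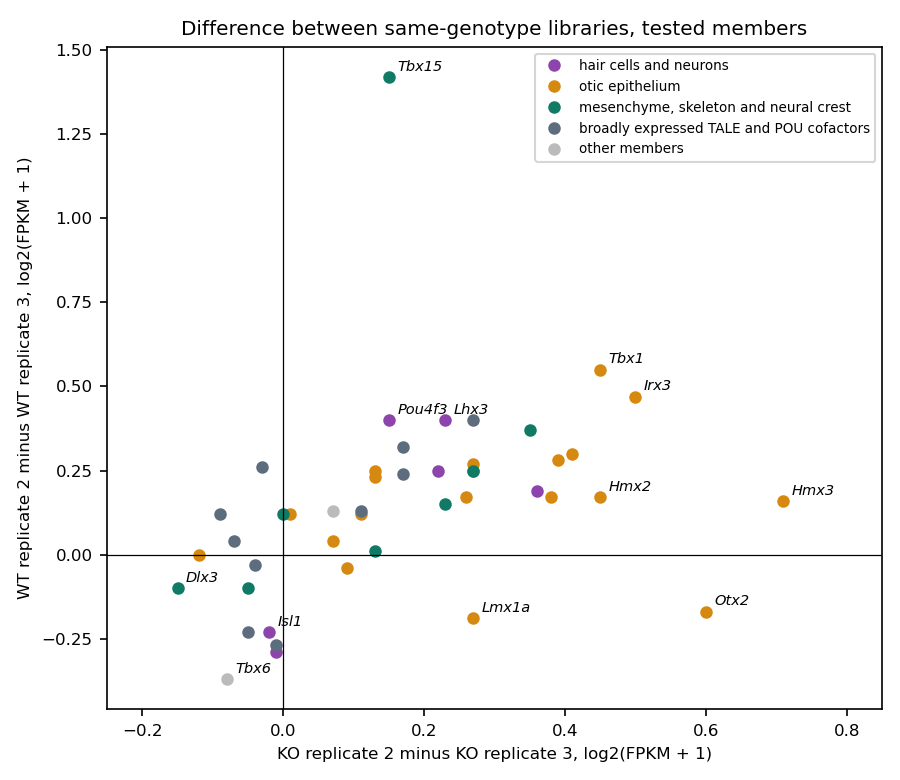
Difference between replicates 2 and 3 on the log2(FPKM + 1) scale within KO (horizontal axis) and within WT (vertical axis) for the 45 tested members, coloured by role. Most points, among them Irx3, Tbx1, Hmx3 and Pou4f3, lie in the upper right, where replicate 2 is the higher in both genotypes, and Tbx15 stands apart by its high value in WT replicate 2.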

How the data were processed

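Per the file headers, the authors deposited FPKM values, 1 table per library, rounded to 2 decimals. The build mm10 and the tools RSEM 1.2.12, Bowtie2 2.2.5 and HISAT2 2.0.4 are named, without roles, in the submitters' processing notes. Each table repeats the FPKM of 1 library, and these 4 per-sample columns were left out. Of 20777 rows, 2961 held no value in any library. The tables hold no counts, so limma 3.58.1 (R 4.3.3) was fitted to log2(FPKM + 1) for the 13966 genes that averaged 0.5 FPKM or more, on genotype alone with an intensity trend, and was tested on simulated data first. P-values are two-sided with Benjamini-Hochberg adjustment over all genes tested and a threshold of 0.05. Fold changes are KO minus WT on the log2(FPKM + 1) scale, which understates changes of low genes. Gene positions and shared exons came from GENCODE vM21 (GRCm38, the assembly of mm10), promoters from RefSeq. RSEM estimates how fragments that match several genes are divided, and the sources used here do not say whether strand was used.

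Genes were named by a fixed rule: Zbtb20, every called member, the members with the smallest p up to 20, the 10 highest, family relatives of called members, and called and smallest-p genes of the other lists, some of which are not reported here. Members named beyond it (among them Lmx1a, Otx2, Tbx15 and low members), Eya1, Eya2, Eya3 and Eya4 were chosen after their values were seen. Members and lists were chosen with earlier results of these data known. The alternatives tried were other pseudocounts, filters and scaling, no trend, a replicate block and leaving out each library.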

Additional observations from a re-analysis of the deposited data

How the results depend on the processing

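The count of members called was 2 in 4 alternatives (pseudocount 0.1, a filter of 1 FPKM, median-of-ratios scaling and no trend), and the 2 were Isl1 and Dlx3 in each. Without the filter on low values it was 1, Pax3, and the count over all genes fell to 266. Leaving out 1 library gave 0 to 2 members, 1 to 580 genes overall and 0 to 4 of the other patterning genes (2, 618 and 2 with all libraries), the lowest counts without either KO library. After median-of-ratios scaling Zeb2 passed as well. Each fit with 1 library left out had the same number of libraries, and why the counts differed between these fits was not tested. The median of the tested members ran from -0.04 to 0.11 over these fits.

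With the replicate number as a block, 14 members passed. Higher were Isl1, Dlx5, Tbx18, Hmx2, Hmx3, Pbx3, Six5 and Msx3, and lower Dlx3, Meis1, Pou4f3, Tbx3, Irx5 and Tbx1 (-0.3 ± 0.05, adjusted p = 0.0189, limma, the member whose groups overlap). Of these, 12 did not pass without the block. With it 2353 genes overall (16.8%) and 23 of the other patterning genes passed. The numbers pair the libraries by number only: differences between replicates 2 and 3 had a correlation across genes of 0.4 between the genotypes over 13966 genes, which are not independent replicates, and of 0.36 over the 45 members.

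Signs turned only when 1 library was left out, in members that had not passed: Dlx6 (-0.06 to 0.06), Irx1 (-0.25 to 0.02), Irx3 (-0.38 to 0.12), Isl2 (-0.31 to 0.05), Lhx3 (-0.33 to 0.07), Lmx1a (-0.05 to 0.23), Meis2 (-0.37 to 0.03), Meis3 (-0.04 to 0.22), Otx2 (-0.13 to 0.47), Pou2f1 (-0.05 to 0.21), Pou3f3 (-0.05 to 0.2), Prrx2 (-0.04 to 0.2), Six2 (-0.03 to 0.23) and Six4 (-0.14 to 0.13). No fragment counts are given, so what depth limits in low members could not be measured.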
